A study of Mus musculus with 6 samples.

Results

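mmu-miR-935, mmu-miR-328-3p, mmu-miR-330-3p, mmu-miR-744-5p and mmu-miR-383-5p are 5 mature mouse miRNAs whose hairpins overlap protein-coding genes. They were chosen by their measured values, because their mean RPM, the reads of a miRNA scaled to a common library total, was lower in brain vesicles after status epilepticus than in control vesicles. They are 5 of 1926 miRNA features in the deposited table, of which 803 were above 0 in at least 1 library. All 5 were among the 308 miRNAs that averaged at least 10 RPM and were tested. Since the choice used the contrast between the groups, the differences of these miRNAs are given as a description and are supported by no test.

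The libraries hold small RNA of extracellular vesicles, which are membrane-bound particles shed by cells, isolated here from the brains of mice. SE-BDEV names the vesicles of mice that had gone through status epilepticus, a prolonged seizure state, and CON-BDEV those of matched control mice, with 3 libraries each. All titles carry day 10. Not given in the sources used here are strain, age and sex of the mice, the agent that set off the seizures, what the day is counted from and whether animals were pooled, so a p-value reflects only how far these libraries spread, possibly for technical reasons.

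A miRNA inside a gene is cut out of a primary transcript by the nuclear enzyme Drosha, and Dicer then trims the hairpin to a duplex of a 5p and a 3p arm. When the hairpin lies on the same strand as the gene, often in an intron, it can be made from the host gene's own transcript, although some such miRNAs also have a promoter of their own. The arm that is loaded into an Argonaute protein represses messenger RNAs that pair with its seed.

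In the GENCODE M21 annotation of GRCm38, 4 of the 5 hairpins lie on the strand of the gene they overlap. The miR-330 hairpin lies on chromosome 7 in an intron of Eml2, which encodes a microtubule-associated protein, and reaches into an exon of a processed transcript of that gene. The miR-744 hairpin lies on chromosome 11 in an intron of Map2k4, a kinase of stress-activated signalling, and the miR-383 hairpin lies on chromosome 8 in an intron of Sgcz, a sarcoglycan. The miR-935 hairpin lies on chromosome 7 inside a coding exon of Cacng8, which encodes an auxiliary subunit of AMPA-type glutamate receptors, so reads of miR-935 and of the same bases of Cacng8 mRNA cannot be told apart. The miR-328 hairpin goes against the name host-gene miRNA: it lies on chromosome 8 on the minus strand, while Elmo3, the gene it overlaps, is on the plus strand.

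RefSeq's mature miRNA table for GRCm38.p6 matched 3 of the 5 by name. These 3 sequences are shown because the seed and the base composition of each are set against the measured values further on. Capitals mark the seed, bases 2 to 8 from the 5′ end. The first lies on the plus strand at chr7:3415120-3415143, the second on the plus strand at chr7:19181525-19181547 and the third on the minus strand at chr11:65734799-65734820.
mmu-miR-935: cCCAGUUAccgcuuccgcuaccgc
mmu-miR-330-3p: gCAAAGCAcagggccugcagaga
mmu-miR-744-5p: uGCGGGGCuagggcuaacagca
The 3 seeds differ from each other. No other mature mouse miRNA of the RefSeq table has the seed of miR-935 or of miR-744-5p. The seed of miR-330-3p also occurs in mmu-miR-6240, whose values are given beside those of the other arms. All 3 sequences are rich in G and C, with a GC content of 66.7% for miR-935, 60.9% for miR-330-3p and 63.6% for miR-744-5p.

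mmu-miR-330-3p had 195, 127 and 265 RPM in CON-BDEV 1 to 3 and 101, 116 and 72.2 RPM in SE-BDEV 1 to 3. Every SE-BDEV library was below every CON-BDEV library. The group means were 196 ± 68.9 RPM (SD, n = 3) in the controls and 96.4 ± 22.2 RPM (SD, n = 3) in SE-BDEV, so the level after seizures was 49.3% of the control level. The difference was -0.98 ± 0.35 (SE) as log2(RPM + 1), a scale on which changes of low values look smaller than they are.

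mmu-miR-935 had 59.3, 48.1 and 80.4 RPM in CON-BDEV 1 to 3 and 34.9, 27.4 and 35.3 RPM in SE-BDEV 1 to 3. The groups did not overlap, and the SE-BDEV libraries lay close together. The means were 62.6 ± 16.4 RPM (SD, n = 3) and 32.5 ± 4.43 RPM (SD, n = 3), a log2 difference of -0.90 ± 0.31 (SE). The SE-BDEV level was 52.0% of that in CON-BDEV.

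mmu-miR-383-5p was the least abundant of the 5 in every library, with 36.6, 36.6 and 49.7 RPM in CON-BDEV 1 to 3 and 26.3, 26.6 and 22.4 RPM in SE-BDEV 1 to 3. Again no SE-BDEV library reached the lowest control. The means were 41.0 ± 7.58 RPM (SD, n = 3) and 25.1 ± 2.37 RPM (SD, n = 3), and the log2 difference of -0.67 ± 0.30 (SE) was nearest to 0 among the 5.

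mmu-miR-328-3p, known as a repressor of the mRNA of the amyloid-cleaving protease BACE1, had 161, 64.6 and 124 RPM in CON-BDEV 1 to 3 and 50.8, 50.4 and 67.3 RPM in SE-BDEV 1 to 3. The groups overlapped, because SE-BDEV 3 was above CON-BDEV 2. The means were 117 ± 48.8 RPM (SD, n = 3) and 56.2 ± 9.61 RPM (SD, n = 3), a log2 difference of -0.96 ± 0.36 (SE).

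mmu-miR-744-5p, the most abundant of the 5, had 1482, 438 and 511 RPM in CON-BDEV 1 to 3 and 351, 275 and 510.3 RPM in SE-BDEV 1 to 3. CON-BDEV 1 stood far above the other libraries, and SE-BDEV 3 lay above CON-BDEV 2 and just under CON-BDEV 3. The means were 810 ± 583 RPM (SD, n = 3) and 379 ± 120 RPM (SD, n = 3), and the log2 difference was -0.91 ± 0.43 (SE), the widest error of the 5.

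**Figure D1:**
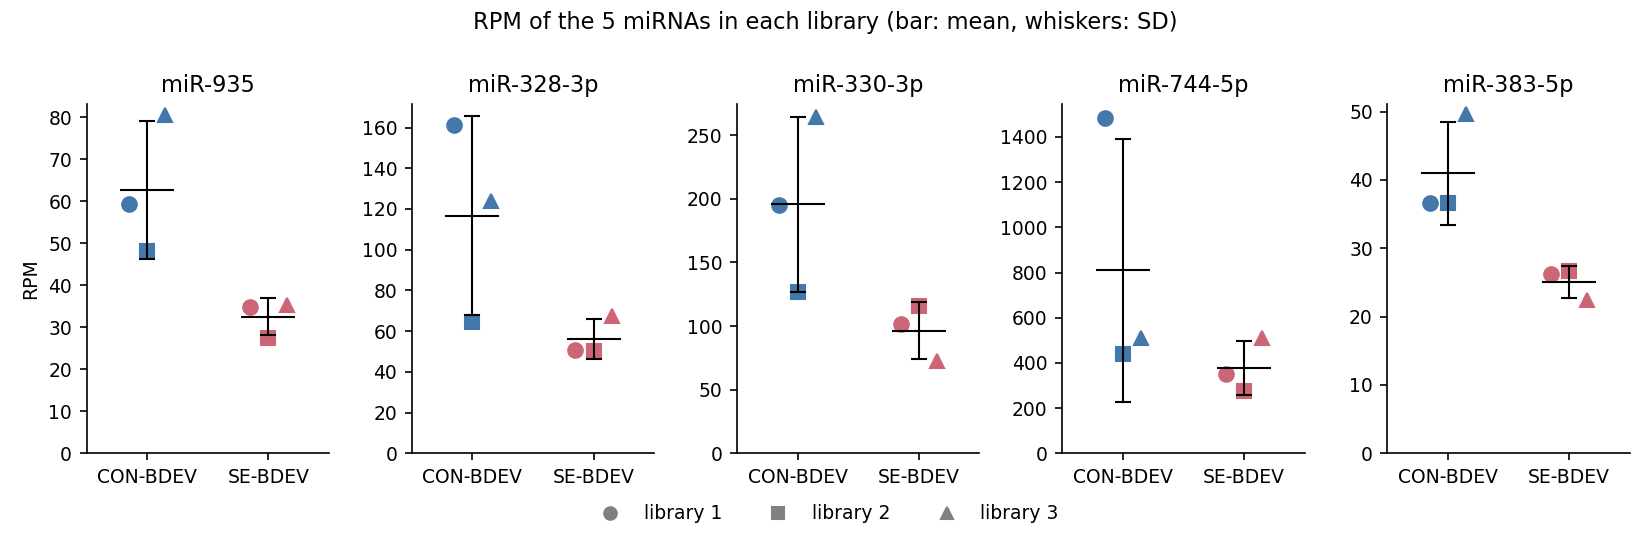
RPM (vertical axes, each from 0) of the 5 miRNAs in each of the 3 CON-BDEV and 3 SE-BDEV libraries, with bars for the group mean and whiskers for the SD. The groups do not overlap for miR-935, miR-330-3p and miR-383-5p, and CON-BDEV 1 stands alone at 1482 RPM for miR-744-5p.

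The order of the 5 by RPM was the same in 6 of 6 libraries: miR-744-5p, miR-330-3p, miR-328-3p, miR-935, miR-383-5p. Mature miRNAs are of nearly equal length, so their RPM values can be set side by side, although ligation and amplification can favour some sequences. In CON-BDEV the ranges of neighbours in this order overlapped except for miR-744-5p and miR-330-3p, whose means differed 4.14-fold. In SE-BDEV no neighbouring ranges overlapped, but miR-935 and miR-383-5p came within 137 and 133 reads of each other in SE-BDEV 2.

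Between 133 and 6521 reads stood behind each value of the 5 miRNAs. The relative counting error was 1.24 to 8.67%, while the coefficient of variation between libraries of a group ran from 9.43 to 71.9%. The spread between libraries was therefore mostly wider than counting could give. These errors cover counting only.

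Leaving out CON-BDEV 1 brought the difference nearer to 0 for miR-744-5p and miR-328-3p. For miR-744-5p, CON-BDEV 1 was 3.12 times the mean of the other controls, and 6 of the 308 tested miRNAs (1.95%) had as high a ratio there. Without CON-BDEV 1 its SE-BDEV mean was 79.9% of the control mean instead of 46.8%, and its log2 difference was -0.37 ± 0.31 (SE). Ordered from the most negative log2 difference, it moved from position 8 of 308 to position 27 of 301.

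For miR-328-3p, CON-BDEV 1 was 1.71 times the mean of the other controls, which 20.1% of the tested miRNAs matched or passed. Its SE-BDEV mean went from 48.1% to 59.6% of the control mean when that library was left out, and the log2 difference was then -0.68. Leaving out CON-BDEV 2, the lowest control of both, had the opposite effect, with a log2 difference of -1.33 for miR-328-3p and -1.24 for miR-744-5p. The remaining 3 miRNAs did not have their highest value in CON-BDEV 1. Without it the log2 difference was -0.92 for miR-935, -0.95 for miR-330-3p and -0.75 for miR-383-5p, each within 0.1 of the value with all 6 libraries. Without CON-BDEV 2 it was -1.07 for miR-935, -1.26 for miR-330-3p and -0.75 for miR-383-5p. For miR-330-3p the value moved most without both libraries numbered 3, its highest control and its lowest SE-BDEV library, to -0.53.

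**Figure D2:**
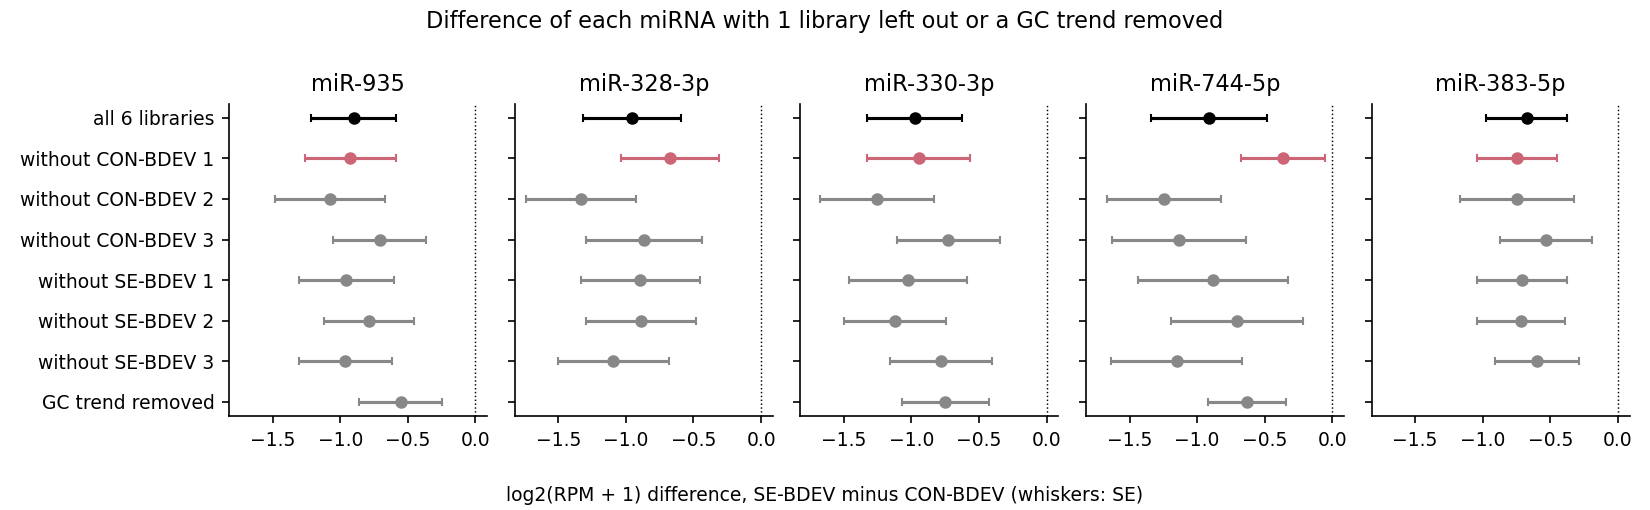
Log2(RPM + 1) difference, SE-BDEV minus CON-BDEV (horizontal axes), of each of the 5 miRNAs with all libraries, with each library left out in turn, and, for the 3 with a sequence, with a GC trend removed; whiskers are the SE. The point for miR-744-5p moves from -0.91 to -0.37 without CON-BDEV 1, and every point of the 5 lies below 0.

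Read against all tested miRNAs, the 5 lay low, as their choice fixed. Their median log2 difference was -0.91, against 0.06 over the 308 tested, of which 42.5% were below 0. Without CON-BDEV 1 the medians were -0.75 and 0.11, with 39.5% of 301 miRNAs below 0. The groups did not overlap for 3 of the 5, where 5.52% of the 308 were lower without overlap, and again for 3 of the 5 without CON-BDEV 1, where the share was 6.98% of 301. That count was 5 when libraries were scaled by median of ratios, by quantiles or by their total without the 10 most abundant miRNAs, where 8.77%, 7.47% and 6.17% of the 308 were lower without overlap. It was also 5 when CON-BDEV 2, SE-BDEV 3 or the pair of libraries numbered 3 was left out, where the share over all tested miRNAs was 16.1%, 9.84% and 11.9%. The share over all miRNAs was thus higher too in each of these settings.

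Over all 308 miRNAs, limma called 0.974% in either direction at a Benjamini-Hochberg adjusted p under 0.05 and 0.0% as lower, while 2.27% were lower at an unadjusted p under 0.05. The 3 miRNAs called, all higher in SE-BDEV, were miR-142a-5p, miR-155-5p and miR-21a-5p, so none of the 5 was called. The lower count changed when CON-BDEV 2 was left out. limma then called 8 of 310 miRNAs, 4 of them lower, miR-328-3p among the 8. In that setting 16.1% of the 310 were lower without overlap. In the authors' deposited table the log2 fold changes were -1.01 for miR-935, -1.09 for miR-328-3p, -1.04 for miR-330-3p, -1.15 for miR-744-5p and -0.77 for miR-383-5p. That table called 0.32% of 625 miRNAs as lower, miR-935 alone of the 5. These calls come from the contrast on which the 5 were chosen, and nothing is read from them.

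The other arm of a hairpin was not used in the choice. mmu-miR-330-5p, the other arm of the miR-330 hairpin, had 104, 70.0 and 95.0 RPM in CON-BDEV 1 to 3 and 102, 48.8 and 117 RPM in SE-BDEV 1 to 3. The groups overlapped, with means of 89.6 ± 17.6 RPM (SD, n = 3) and 89.3 ± 35.9 RPM (SD, n = 3). The log2 difference was -0.08 ± 0.37 (SE), with a limma adjusted p of 0.959 over the 308 miRNAs, and its sign turned when a GC trend was removed (0.11), with array weights (0.15), without CON-BDEV 1 (0.04) and without SE-BDEV 2 (0.30). The 2 arms lie on the plus strand of the same hairpin, the 5p arm at chr7:19181486-19181507, and its sequence is shown for comparison with the 3p arm printed above.
mmu-miR-330-5p: uCUCUGGGccugugucuuaggc
The ratio of the 3p to the 5p arm was 1.88, 1.81 and 2.79 in CON-BDEV 1 to 3 and 0.997, 2.37 and 0.615 in SE-BDEV 1 to 3. SE-BDEV 2 had a ratio within the control range, and the other two SE-BDEV libraries lay below it. The ratio contains the value of the chosen arm, so it was not tested.

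The remaining arms were listed low or at 0. mmu-miR-744-3p had 0 to 2.20 RPM, at most 11 reads in a library, and miR-328-5p and miR-383-3p were listed at 0 in all 6 libraries. A listed 0 need not mean absence in this table, where miR-24-3p was at 0 in 4 libraries, at 3544 RPM in CON-BDEV 3 and at 3128 RPM in SE-BDEV 3. No second arm of miR-935 was in the table. A comparison of both arms was therefore possible only for the miR-330 hairpin.

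mmu-miR-6240, which shares the seed of miR-330-3p, had a higher mean in SE-BDEV. It had 60.2, 45.0 and 72.1 RPM in CON-BDEV 1 to 3 and 177, 135 and 74.1 RPM in SE-BDEV 1 to 3. No SE-BDEV library was below a control, but SE-BDEV 3 was close to CON-BDEV 3. The log2 difference was 1.05 ± 0.36 (SE) and did not pass the limma test, with an adjusted p of 0.344.

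Within the groups the 5 miRNAs deviated partly together. CON-BDEV 2 was below the control mean for all 5, with a median deviation of -0.56 on the log2(RPM + 1) scale, and CON-BDEV 3 was above it for 4 of them. Over the 10 pairs of miRNAs and n = 6 libraries, Pearson's r ran from 0.363 to 0.943 with a median of 0.812, which includes the group difference they were chosen for. After the group means were removed, r ran from -0.504 to 0.853 with a median of 0.476, and 8 of 10 pairs were above 0. The highest was that of miR-330-3p with miR-383-5p, and the lowest that of miR-744-5p with miR-383-5p. The points share the libraries and their depth, and these correlations are descriptions.

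The miRNAs whose pattern over the 6 libraries was most like the mean profile of the 5 were let-7d-3p (Pearson's r 0.908), miR-667-3p (0.887), miR-485-3p (0.886), miR-1224-5p (0.880) and miR-483-5p (0.853). let-7d-3p, the closest, had 116, 35.8 and 90.8 RPM in CON-BDEV 1 to 3 and 29.3, 37.2 and 49.9 RPM in SE-BDEV 1 to 3. Like miR-328-3p it was low in CON-BDEV 2, and it was also the closest to miR-328-3p alone, with r = 0.976. miR-744-5p was most like miR-770-3p (r = 0.986), which had 410 RPM in CON-BDEV 1 against 181 and 176 RPM in the other controls. miR-382-5p was the closest to both miR-330-3p (r = 0.975) and miR-383-5p (r = 0.962), and miR-134-5p to miR-935 (r = 0.880). All of these are over n = 6 libraries, and each r includes the group difference for which the 5 were chosen.

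GC content moved with the group difference over all miRNAs, and with the excess in CON-BDEV 1. Of the 308 tested miRNAs, 268 had a RefSeq sequence, with a median GC content of 50.0%. Across these miRNAs, which are not independent replicates, GC content and the log2 difference had a Pearson's r of -0.506 and a Spearman's rho of -0.569. GC content and the log2 excess of CON-BDEV 1 over the other controls had r = 0.417 and rho = 0.641, where the lowest point is miR-24-3p. Correlated with GC content, a library's level relative to the mean over the libraries had r = 0.595 in CON-BDEV 1, -0.0220 and 0.0146 in the other controls, and -0.178, -0.304 and -0.249 in SE-BDEV 1 to 3.

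The 3 sequences shown all lay at the GC-rich end, miR-935 at percentile 93.7, miR-744-5p at 88.1 and miR-330-3p at 82.1 of those 268 miRNAs. Of the 54 tested miRNAs with a GC content of 60.9% or more, 41 were lower in SE-BDEV, with a median log2 difference of -0.34. Of the 214 with less, 75 were lower, with a median of 0.11. When a GC trend was removed from each library, the log2 difference was -0.55 for miR-935, -0.75 for miR-330-3p and -0.63 for miR-744-5p. With a sequence for 3 of 5 miRNAs the check is void for the group as a whole, and the part of GC content in the result was not tested.

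**Figure D3:**
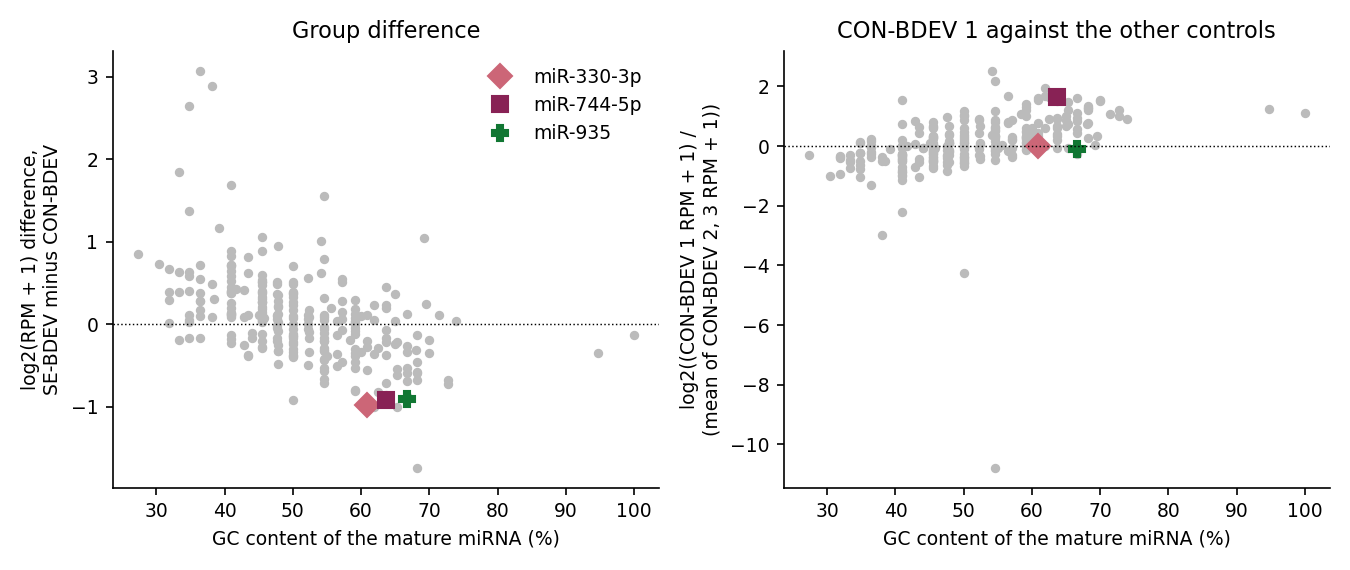
GC content of the mature miRNA in percent (horizontal axes) against the log2 difference of SE-BDEV minus CON-BDEV (left) and the log2 excess of CON-BDEV 1 over the other controls (right), for the 268 tested miRNAs with a RefSeq sequence; the 3 of the 5 miRNAs with a sequence are marked. The cloud falls with GC content on the left (r = -0.506) and rises on the right (r = 0.417), and the marked miRNAs lie at 60.9 to 66.7% GC.

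Other miRNAs from a list of 50 named for lying inside protein-coding genes were mostly higher in SE-BDEV. The 50 names matched 49 features, because miR-103-3p and miR-107-3p were merged, and 36 features were tested. Of the 36, 28 were higher and 8 were lower, where 42.5% of all 308 were below 0. Their median log2 difference was 0.27, and 0 of 36 were called by limma. Their groups did not overlap for 10 that were higher, where 10.7% of all 308 were. The same held for 1 that was lower, miR-346-5p, where 5.52% of the 308 were. With a GC trend removed, 15 of 32 were lower and 17 higher, with a median of 0.01, where 55.2% of all 268 were below 0. GENCODE matched 42 of the 50 names to 39 hairpins and placed 37 of these on the strand of a protein-coding gene, with miR-191 and miR-425 outside.

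The largest differences toward lower values in that list were those of miR-1224-5p, in Vwa5b2, at -0.87, and of miR-346-5p, in the glutamate receptor gene Grid1, at -0.62. Toward higher values they were those of miR-15b-5p, in Smc4, at 0.89, and of miR-340-5p, in Rnf130, at 0.85. miR-1224-5p is also among the miRNAs most like the mean profile of the 5, a profile that includes the group difference they were chosen for. None of these 4 was called by limma.

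**Figure D4:**
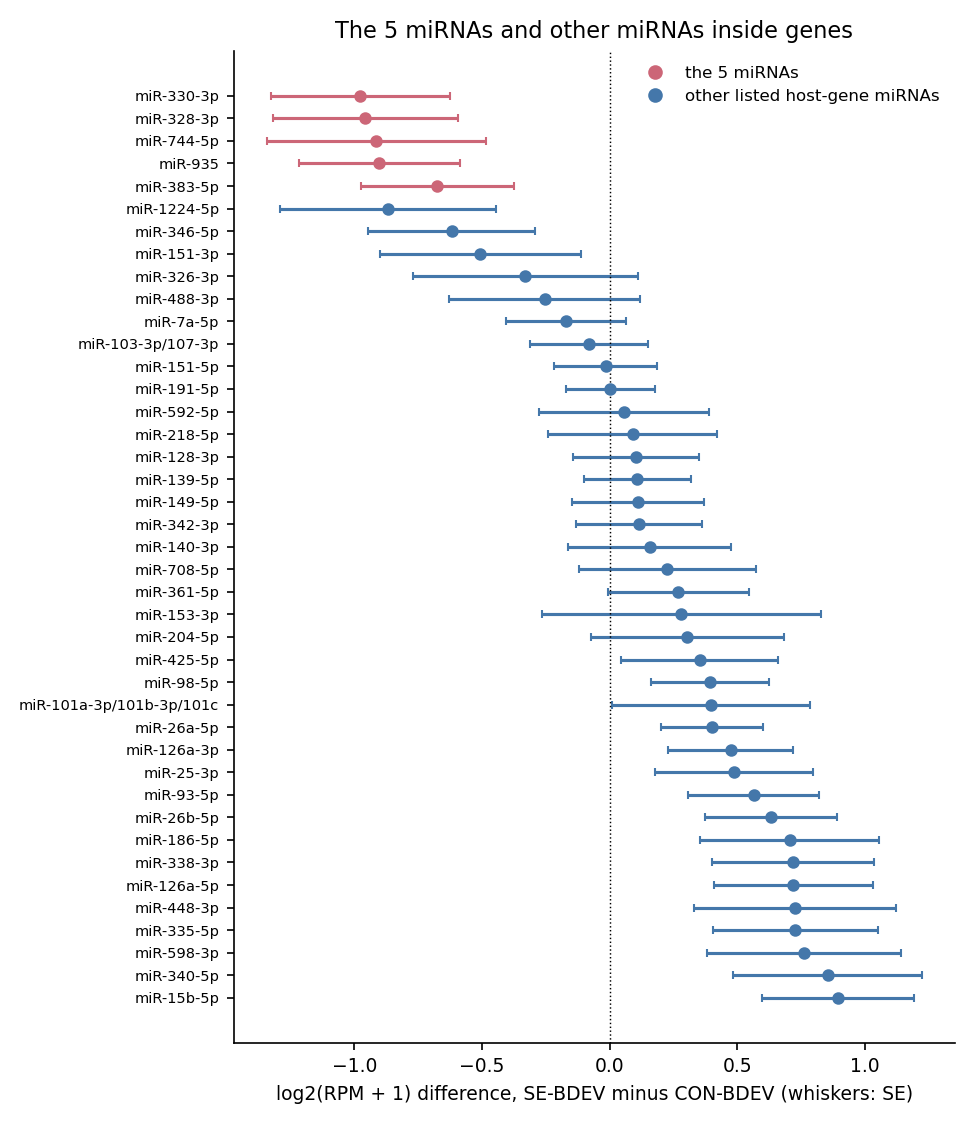
Log2(RPM + 1) difference, SE-BDEV minus CON-BDEV (horizontal axis), with its SE as whiskers. Shown are the 5 miRNAs and the 36 tested miRNAs of the list of others named for lying inside genes. On the vertical axis the 5 come first, and each set is ordered by the difference. GENCODE placed miR-191-5p and miR-425-5p of that list outside protein-coding genes, and it matched 42 of the 50 names. The 5 lie at -0.98 to -0.67, and 28 of the 36 others lie above 0.

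Depth was 4400167 to 9391887 miRNA reads a library. A two-sided exact permutation test of depth between the groups gave p = 0.7, but with 3 against 3 libraries its smallest possible p is 0.1, so it cannot show a difference or its absence. All 10 neuronal marker miRNAs were above 0 in the brain vesicles, with summed levels of 28643 to 35302 RPM in the controls and 26963 to 49184 RPM after seizures, and 8 of 10 had a log2 difference above 0, which is what higher means for the marker lists. The red cell markers miR-451a and both arms of miR-144 were listed at 0 in all 6 libraries. Another red cell marker, the merged miR-486a-5p/486b-5p, was above 0 in every library. It had 83.6 to 199 RPM in the controls and 102 to 111 RPM after seizures. Its log2 difference was -0.07 ± 0.36 (SE). The summed red cell list was 6451 to 9284 RPM in the controls and 11004 to 11968 RPM after seizures. Nearly all of it was miR-16-5p, which many cell types make. Of the 2 tested members of this list, 1 was higher and 1 was lower. Microglial and immune markers summed to 1922 to 2526 RPM in the controls and 2340 to 3047 RPM after seizures. Most of these sums was miR-342-3p, at 1676 to 2336 RPM in the controls and 1756 to 2326 RPM after seizures. In that list 7 of 8 tested members were higher and 3 were called by limma, the same 3 that were called among all miRNAs.

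Of the remaining lists, the endothelial one summed to 3601 to 5405 RPM in the controls and 4965 to 7621 RPM after seizures. The log2 difference was above 0 for 4 of 4 tested members, where 42.5% of all 308 tested miRNAs were below 0. These members were both arms of the single miR-126a hairpin, miR-143-3p and miR-145a-5p. The log2 difference of miR-145a-5p was 0.02 ± 0.41 (SE), and its mean RPM was slightly lower. Oligodendrocyte markers summed to 143 to 177 RPM and 205 to 301 RPM in the same order, with 2 of 2 tested members higher. miR-338-3p made up most of these sums, and miR-219a-5p was listed at 0 in all 6 libraries. The log2 difference of miR-219a-2-3p was 0.19 ± 0.35 (SE). The list of astrocyte markers summed to 6671 to 11315 RPM in the controls and 5830 to 13428 RPM after seizures. Of its 6 members, 4 were higher and 2 lower, and 0 were called by limma. Those higher were miR-449a-5p (log2 difference 0.89), miR-143-3p (0.34), miR-29a-3p (0.26) and the merged miR-27a-3p/27b-3p (0.18). miR-143-3p is also counted in the endothelial list, so this list does not mark astrocytes alone. The astrocyte sums include miR-24-3p, which was above 0 only in CON-BDEV 3 and SE-BDEV 3. Markers of other organs summed to 257 to 294 RPM and 344 to 404 RPM, with 3 of 4 higher. The part of these levels in the lower RPM of the 5 miRNAs was not tested. Fewer vesicles from a cell type and less of a miRNA per vesicle cannot be told apart in these bulk libraries.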

How the data were processed

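The authors deposited RPM values for 1926 miRNA features in 6 libraries, and a table of their own comparison. That table, as the authors deposited it, holds a base mean (a normalized signal), log2 fold changes and their errors, a score from the test, and raw and adjusted p-values. DESeq2 and mm9 are named in the submitters' processing notes. Aligner, counting tool and handling of molecular identifiers: not given in the sources used here. The kits were miRNeasy Micro for RNA and QIAseq miRNA for libraries, per the labels' protocols. Of the deposited features, 35 merged several mature miRNAs, none of them among the 5. RPM values were whole multiples of a step per library within 0.01 step, which gave the reads quoted. The smallest listed value was 2 reads, so the values were not taken as counts and no count test was run. An edgeR fit listed among the alternatives was not made for that reason. A total of 3 reads, the limit that a true count of 0 allows, was 0.319 to 0.682 RPM. Because the smallest listed value was 2 reads, a listed 0 may hide a read and need not keep to this limit.

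Values were tested as log2(RPM + 1) with limma 3.58.1 (R 4.3.3, statmod 1.5.0; intensity trend, robust empirical Bayes, two-sided), over the 308 miRNAs averaging at least 10 RPM, with Benjamini-Hochberg adjustment and a threshold of 0.05. The procedure was tested on simulated data. Deviations of same-numbered libraries had r = 0.216, 0.202 and 0.462, over the bound of 0.1 for pairing, but those of CON-BDEV 2 and SE-BDEV 1 had r = 0.336, and without miR-24-3p all 3 were below 0. The labels do not say what a number marks, so the fit with the number as a block is an alternative only. Other alternatives were scalings, pseudocounts, filters, array weights, removal of a GC trend and leaving out libraries. The 5 miRNAs and all lists were chosen with earlier results of these data known. Named besides the 5 are their other arms, same-seed miRNAs, the 5 miRNAs most like their mean profile, the closest to each, listed markers, the 2 largest differences each way among other host-gene miRNAs, and the miRNAs limma called. Host genes came from GENCODE M21 and sequences from RefSeq, both on GRCm38; no coordinate was converted.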

Additional observations from a re-analysis of the deposited data

How the results depend on the processing

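All 5 miRNAs stayed lower in SE-BDEV under every alternative that tested all 5; a filter at 100 RPM left miR-330-3p and miR-744-5p, and removal of a GC trend covered the 3 with a sequence. Over the alternatives the log2 difference ran from -1.07 to -0.55 for miR-935, -1.33 to -0.68 for miR-328-3p, -1.26 to -0.53 for miR-330-3p, -1.37 to -0.37 for miR-744-5p and -0.77 to -0.45 for miR-383-5p. limma called 3 miRNAs, 1 with the filter at 100 RPM, 6 with array weights, and 2 to 8 with a library left out. The 8, of 310 tested, were called without CON-BDEV 2, with 4 of them lower and miR-328-3p among the 8. The authors' deposited table called 7. With the replicate block for the pairing by number limma called 10, 1 of them lower and none of the 5. With the block and a GC trend removed it called 4, 2 of them lower. Without miR-24-3p the same-number correlations were -0.0639, -0.0614 and -0.0806, so their positive values rest on that miRNA. Whether libraries with the same number are paired was not tested. The number of the 5 whose groups did not overlap was 5 with median-of-ratios scaling (8.77% of all tested lower without overlap), quantile normalization (7.47%), a total without the 10 most abundant (6.17%) or without both libraries numbered 3 (11.9%), and 3 to 5 with a library left out (5 without CON-BDEV 2, 16.1%, and SE-BDEV 3, 9.84%), against 5.52% with all libraries. miR-330-5p changed sign, to 0.11 after removal of a GC trend (0.11 also when the block was added), to 0.15 with array weights, and within -0.32 to 0.30 with a library left out. The share of tested miRNAs below 0 was 42.5%, 51.0% with median-of-ratios scaling, 51.9% with quantiles, 53.2% without the 10 most abundant and 55.2% with a GC trend removed, but 36.0% with array weights, 38.8% with the filter at 100 RPM and from 38.4 to 50.2% with a library left out. The planned edgeR fit was not run. The cause of these shifts was not tested.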
